A study of Homo sapiens with 6 samples.

Results

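The comparison described here is Comp.2 against vehicle in A549, an established line of human lung adenocarcinoma cells. It uses 4 of the 6 arrays of the series: the 2 titled Comp.2, from cells given 2 µM of that compound, and the 2 titled vehicle, from cells given the vehicle alone. The other 2 arrays are from cells given 2 µM of a second compound, Comp.4, and are set beside Comp.2 where stated. All cells were kept in DMEM with serum and glutamine, treatment began a day after plating, and RNA was taken after 2 days, per the labels' protocols. The design text calls both compounds 646-PIP and the treatment protocol writes 664-PIP. The series title presents them as histone acetyltransferase inhibitors with sequence specificity. The labels do not say whether the 2 arrays of a group came from separate cultures, so the p-values measure only how these samples spread, and that spread may be technical. Every measured gene was a member: 22395 genes with 1 symbol per probe set, of which 17065 are protein-coding. The log2 RMA values of all 53617 probe sets ran from 1.80 to 13.26, with array medians of 4.55 to 4.56, and 1 unit is a doubling.

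Histone acetyltransferases such as EP300 and CREBBP place acetyl groups on histones near promoters and enhancers and also acetylate p53, the transcription factor that halts the cell cycle and primes apoptosis after damage. A549 cells keep an intact p53 gene. A separate programme, led by the factor ATF4, supplies amino acids and charged tRNAs when they run short or when proteins misfold. Both programmes are taken here as gene lists and are given briefly, after the genes on none of these lists and after other families. The lists may not be complete, so a gene outside them may still belong to either programme, which was not tested. Some of the other families share genes with the p53 list.

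Under Comp.2, 30 genes were higher than under vehicle, which is 0.134% of the 22395 tested, and 14 were lower, which is 0.0625% (limma, Benjamini-Hochberg adjusted p under 0.05). These 44 genes are said below to have risen or fallen. Of the 44, 15 stand on a list of p53 targets and all of those rose, 10 stand on lists of amino acid stress genes, tRNA synthetases and folate enzymes and all of those fell, and 19 are on none of these lists. Changes were moderate: 12 of the 44 reached 2-fold, and the median size was 0.88 on the log2 scale, from 0.62 to 1.86. In all 44 the 2 Comp.2 arrays lay apart from the 2 vehicle arrays, as did 22.7% of all genes in the higher direction and 21% in the lower. An exact permutation test of 2 arrays against 2 cannot give a p below 0.333, so each call rests on the spread that limma shares across genes, with 3 residual and 3.71 prior degrees of freedom. Leaving out any single vehicle or Comp.2 array (vehicle 1, vehicle 2, Comp.2 1 or Comp.2 2) left 0 genes past limma's threshold in either direction, with, at an unadjusted p under 0.05, between 932 and 1470 genes above vehicle and between 722 and 1036 below it. Leaving out a Comp.4 array, which only informs the spread, left 9 higher and 5 lower.

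**Figure D1:**
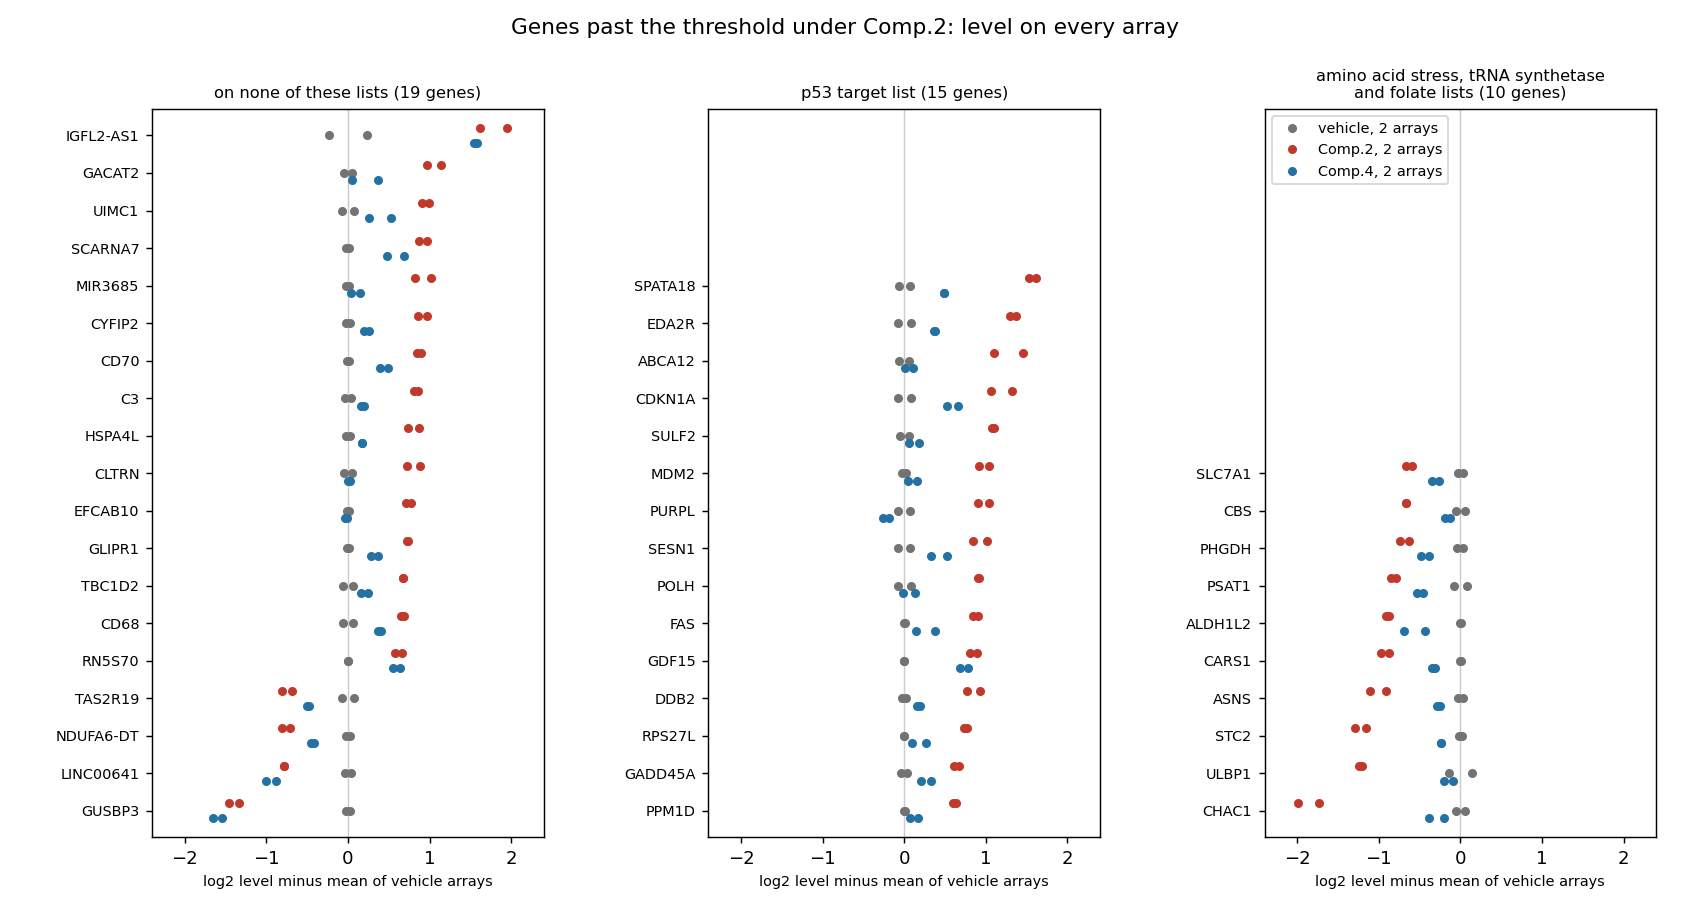
Level of each of the 44 genes past the threshold on every array, as log2 minus the mean of the 2 vehicle arrays, in 3 panels: 19 genes on none of the stress lists, 15 on the p53 target list and 10 on the amino acid stress, tRNA synthetase and folate lists. Each dot is 1 array (grey vehicle, red Comp.2, blue Comp.4), and in every row the red pair lies clear of the grey pair.

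The 15 genes that rose outside the stress lists include proteins of the cell surface and of secretion. CD70, a ligand of the TNF superfamily that binds CD27 on lymphocytes, read 6.00 and 5.98 on the vehicle arrays and 6.88 and 6.84 on the Comp.2 arrays. It rose by 0.87 on the log2 scale (95% interval 0.69 to 1.04, 1.83-fold, limma adjusted p = 0.0209). C3, the central component of complement, read 7.92 and 7.84 under vehicle and 8.68 and 8.74 under Comp.2, a rise of 0.83 (0.66 to 1.00, limma adjusted p = 0.0209). CLTRN, or collectrin, is a membrane protein that carries amino acid transporters to the surface of kidney cells. Its values were 5.28 and 5.39 under vehicle and 6.06 and 6.22 under Comp.2, a rise of 0.80 (0.60 to 1.00, limma adjusted p = 0.0301). GLIPR1, a member of the CAP protein superfamily, had 7.48 and 7.51 under vehicle and 8.21 and 8.23 under Comp.2, a rise of 0.73 (0.56 to 0.90, limma adjusted p = 0.0234). In each of these genes the vehicle arrays lay close together, and the gap to the lower Comp.2 array was several times wider. The genes were picked by a test on these same arrays that favours such a gap, so it is no further support.

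Among proteins that act inside the cell, CYFIP2, TBC1D2, HSPA4L, EFCAB10 and UIMC1 rose. CYFIP2 encodes a subunit of the WAVE complex, which drives branched actin. It read 7.78 and 7.83 on the vehicle arrays and 8.77 and 8.66 on the Comp.2 arrays, a rise of 0.91 (0.73 to 1.09, limma adjusted p = 0.0209). TBC1D2, which switches off the late endosome GTPase RAB7, read 6.80 and 6.91 and then 7.53 and 7.53, a rise of 0.67 (0.49 to 0.86, limma adjusted p = 0.0412). HSPA4L, an HSP110 chaperone that recharges HSP70 proteins, read 7.88 and 7.92 under vehicle and 8.77 and 8.64 under Comp.2, a rise of 0.80 (0.62 to 0.99, limma adjusted p = 0.0234). EFCAB10, which encodes an EF-hand protein, read 5.16 and 5.18 and then 5.88 and 5.94, a rise of 0.74 (0.58 to 0.91, limma adjusted p = 0.0234). UIMC1, also called RAP80, brings the BRCA1-A complex to ubiquitin at DNA breaks. The brighter of its 2 probe sets read 7.81 and 7.67 under vehicle and 8.74 and 8.65 under Comp.2, a rise of 0.95 (0.69 to 1.21, limma adjusted p = 0.0407), while the other probe set differed by -0.18. The UIMC1 probe sets therefore disagreed in sign, and their mean gave 0.39 and did not pass (limma adjusted p = 0.237).

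CD68, a glycoprotein of lysosome membranes that is abundant in macrophages, read 8.66 and 8.53 on the vehicle arrays and 9.29 and 9.25 on the Comp.2 arrays, a rise of 0.67 (0.48 to 0.85, limma adjusted p = 0.0412). CD68 is also 1 of 11 leukocyte markers measured. The other 10 did not pass, and the pan-leukocyte gene PTPRC was among the dimmest values, at 2.70 under vehicle and 2.71 under Comp.2. The mean log2 level of the 11 leukocyte markers was 4.50 and 4.44 on the vehicle arrays and 4.58 and 4.54 on the Comp.2 arrays, and 2 of the 11 (CD68 and CD14) were brighter than the median gene. Of 8 fibroblast and 9 endothelial markers, 1 and 2 were brighter than the median gene and none passed. All 14 markers of A549 and like carcinoma lines, among them ALDH1A1, AKR1B10 and NQO1, were brighter than the median gene, with group means of 6.31 to 12.41 under vehicle, and none of them passed. In RNA from a whole culture, fewer cells of a kind and less RNA per cell cannot be told apart.

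The largest rise of all was in a long noncoding RNA, IGFL2-AS1, which overlaps IGFL2 in RefSeq. It read 4.87 and 4.39 under vehicle and 6.58 and 6.25 under Comp.2, a rise of 1.78 (1.37 to 2.19, 3.44-fold, limma adjusted p = 0.0234). Its vehicle arrays spread more than those of the other genes that rose, and still lay below Comp.2. Under vehicle the mean of IGFL2-AS1 was 4.63, dimmer than the median gene's 5.35, so the rise starts from a low level. IGFL2 itself differed by 0.18 (limma adjusted p = 0.47). GACAT2, a long noncoding RNA that overlaps MTCL1, read 5.51 and 5.42 and then 6.43 and 6.60, a rise of 1.05 (0.76 to 1.34, limma adjusted p = 0.0412), and MTCL1 differed by 0.11 (limma adjusted p = 0.69). The neighbours were taken by position in RefSeq, and none of them passed.

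Small RNA genes gave 3 of the rises. SCARNA7, a Cajal body RNA that lies in KPNA4 and belongs to the guides for chemical modification of spliceosomal RNAs, read 7.40 and 7.43 under vehicle and 8.38 and 8.29 under Comp.2, a rise of 0.92 (0.70 to 1.14, limma adjusted p = 0.0237). KPNA4 differed by -0.05 (limma adjusted p = 0.87). RN5S70, a 5S ribosomal RNA copy whose near-identical relatives may share its probes, read 5.81 and 5.80 and then 6.38 and 6.47, a rise of 0.62 (0.44 to 0.80, limma adjusted p = 0.0476). MIR3685, a microRNA gene dimmer than the median gene, read 3.04 and 3.08 and then 4.08 and 3.88, a rise of 0.92 (0.70 to 1.14, limma adjusted p = 0.0238). The probe set stands for the gene and does not separate precursor from mature RNA. Over all genes 0.134% rose, so a single microRNA gene of 1046 is no result about microRNAs as a family. The mature RNA of MIR3685, the microRNA gene that passed, is shown with the seed in capitals, from RefSeq, GRCh38.p14, chr12:95309928-95309949, plus strand.
hsa-miR-3685: uUUCCUACccuaccugaagacu
MIR331, the nearest measured gene to MIR3685 in RefSeq, differed by -0.48 (limma adjusted p = 0.49).

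Of the 14 genes that fell, 4 lie outside the stress lists and 3 of these are noncoding. GUSBP3, a pseudogene of the lysosomal enzyme beta-glucuronidase, read 7.35 and 7.41 on the vehicle arrays and 6.05 and 5.92 on the Comp.2 arrays. It fell by 1.40 on the log2 scale (-1.59 to -1.20, 2.63-fold, limma adjusted p = 0.00603), the second largest fall after CHAC1. None of the other 5 GUSBP-named pseudogenes passed, and near-identical copies may share its probes. LINC00641 read 7.03 and 7.10 and then 6.29 and 6.29, a difference of -0.78 (-0.96 to -0.60, limma adjusted p = 0.0234), and its other probe set differed by -0.24. The mean of the 2 LINC00641 probe sets gave -0.51 and did not pass (limma adjusted p = 0.0885). NDUFA6-DT, named as a divergent transcript of the complex I gene NDUFA6, read 4.46 and 4.51 and then 3.67 and 3.78, a difference of -0.76 (-0.94 to -0.58, limma adjusted p = 0.0234). NDUFA6 differed by 0.01 (limma adjusted p = 0.98). TAS2R19, a bitter taste receptor gene, read 3.63 and 3.76 and then 3.01 and 2.89, a difference of -0.74 (-0.94 to -0.54, limma adjusted p = 0.0407). TAS2R19 and NDUFA6-DT are both dimmer than the median gene, and none of the 26 taste receptors measured was brighter than it. Under vehicle the levels of TAS2R19 and MIR3685 lay near those of leukocyte genes such as LYZ and CD3E (3.31 and 3.44), and detection above background was not analysed here.

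Families were compared by the share of their members with an unadjusted limma p under 0.05, since few members passed the adjusted threshold. Over all 22395 genes that share was 6.23% in the higher direction (1396 genes) and 4.94% in the lower (1106 genes), and the median difference was 0.004. With each array centred on its own median these were 1148 and 1415 genes and the median was -0.01, so family differences of that size depend on the scaling. Family members were measured on the same arrays and are not replicates, so these counts describe the families on these 4 arrays and carry no test.

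**Figure D2:**
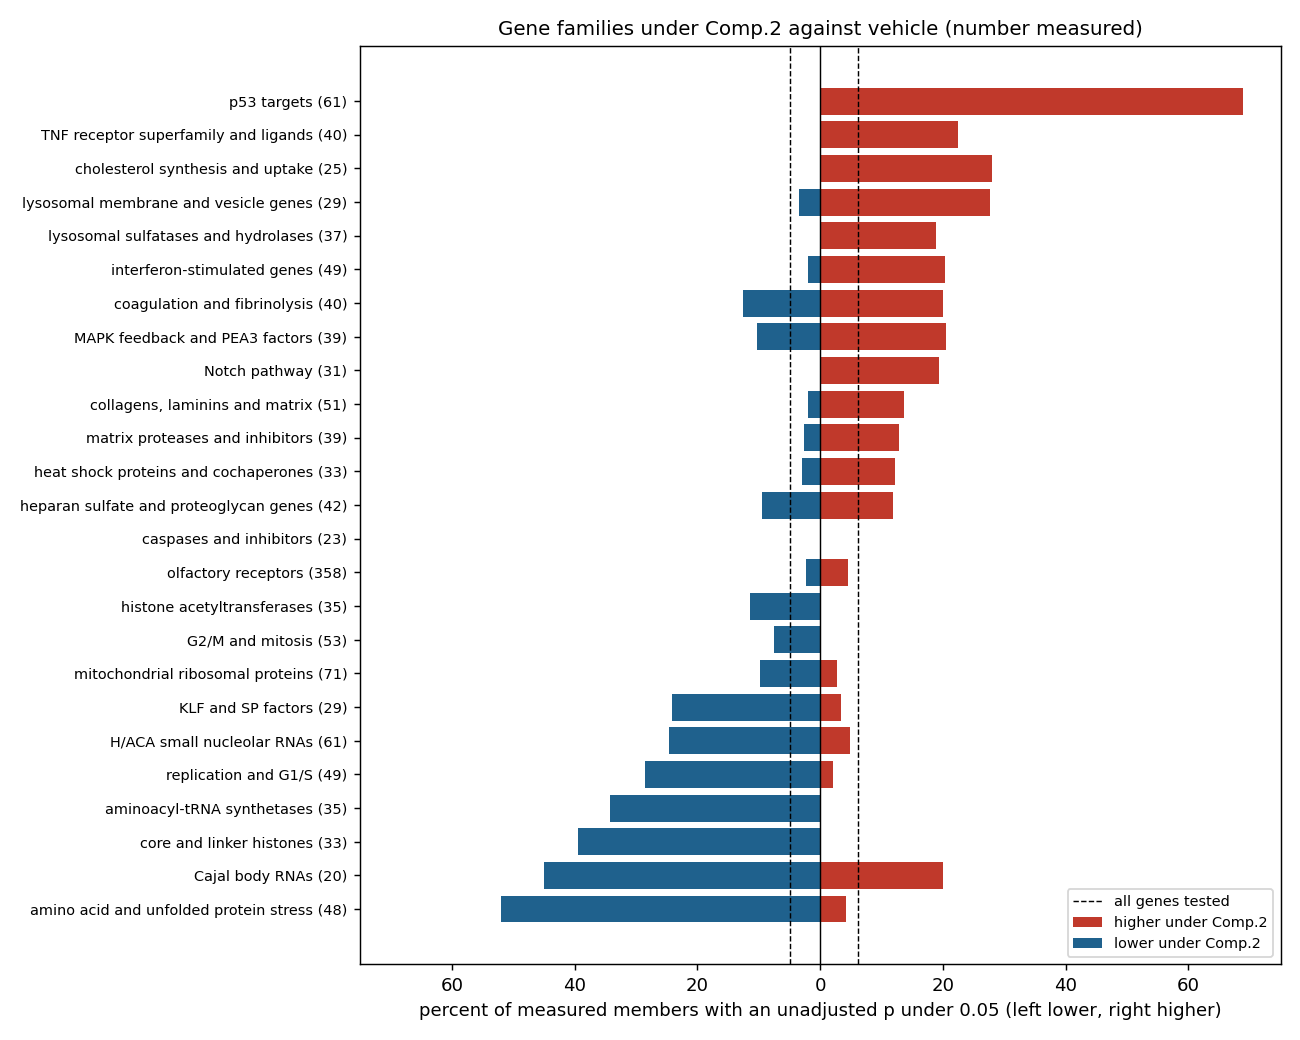
Share of the measured members of 25 families with an unadjusted limma p under 0.05, higher under Comp.2 to the right and lower to the left, in percent. Dashed lines give the shares over all 22395 genes, 6.23% higher and 4.94% lower. TNF superfamily, sterol and lysosome genes extend to the right, and histone, replication, tRNA synthetase and Cajal body genes to the left.

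In the TNF superfamily, 3 of 40 measured genes rose and none fell. Beside CD70 these were the receptors EDA2R and FAS, both on the p53 list: FAS, the death receptor for FAS ligand, read 6.94 and 6.96 under vehicle and 7.85 and 7.80 under Comp.2, and EDA2R, a receptor for ectodysplasin A2, read 8.02 and 7.86 and then 9.24 and 9.31. EDA2R rose by 1.34 (1.14 to 1.53, limma adjusted p = 0.00603) and FAS by 0.88 (0.65 to 1.10, limma adjusted p = 0.0324). Altogether 9 of the 40, or 22.5%, had an unadjusted p under 0.05 in the higher direction and 0 in the lower, and the family median was 0.08. Downstream of the death receptors, none of 23 caspases and caspase inhibitors reached an unadjusted p under 0.05 and their median was -0.02. In the BCL2 family no gene of 21 passed. BAX, which opens the mitochondrial outer membrane and is also on the p53 list, read 8.50 and 8.32 under vehicle and 9.12 and 9.32 under Comp.2 (difference 0.80, limma adjusted p = 0.0761). BCL2A1, which holds BAX in check, differed by 0.49 (limma adjusted p = 0.111).

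Among lysosome genes the shares were larger on the higher side. Of 29 genes of lysosome membranes and vesicles, CD68 rose, 8 (27.6%) were higher at an unadjusted p under 0.05 and 1 (3.45%) was lower, with a median of 0.07. SLC17A5, the sialic acid exporter of the lysosome, read 6.65 and 7.04 under vehicle and 7.35 and 7.39 under Comp.2 (difference 0.52, limma adjusted p = 0.239). Of 37 lysosomal hydrolases, 7 (18.9%) were higher at an unadjusted p under 0.05, 0 lower and none passed. The cathepsins CTSS and CTSL, proteases of the lysosome, differed by 0.42 and 0.37 (limma adjusted p = 0.166 for both). The autophagy list of 37 genes had 4 higher and 2 lower at that level, led by WIPI1, a phosphoinositide-binding protein of the forming autophagosome, at 0.47 (limma adjusted p = 0.166).

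Lipid genes had few large differences. Of 25 genes of cholesterol synthesis and uptake, 7 (28%) were higher at an unadjusted p under 0.05, 0 were lower and none passed, with a median of 0.06. The largest were TM7SF2, a sterol reductase, at 0.43 (limma adjusted p = 0.228), STARD4, a cholesterol carrier, at 0.33, and MSMO1, a sterol demethylating oxidase, at 0.32 (limma adjusted p = 0.211). ABCA12, a lipid transporter of the skin barrier and on the p53 list, read 4.86 and 4.73 under vehicle and 6.25 and 5.89 under Comp.2. It rose by 1.28 (0.98 to 1.58, 2.42-fold, limma adjusted p = 0.0234), and it was the single gene of 41 ABC transporters to pass. ABCA12 is dimmer than the median gene, with a vehicle mean of 4.79. ABCA1, the cholesterol exporter, differed by 0.37 (limma adjusted p = 0.249). Among 30 enzymes of ceramide and sphingosine metabolism none passed. ACER2, a ceramidase of the Golgi that is also on the p53 list, read 5.80 and 5.52 and then 6.38 and 6.45 (difference 0.75, limma adjusted p = 0.0761).

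At the cell surface and in the matrix, SULF2 was the single gene of 42 in the heparan sulfate and proteoglycan list to pass. SULF2 is secreted and trims sulfate groups from heparan sulfate chains, which alters the binding of growth factors, and it also stands on the p53 list. It read 7.62 and 7.51 on the vehicle arrays and 8.64 and 8.66 on the Comp.2 arrays and rose by 1.09 (0.90 to 1.28, 2.13-fold, limma adjusted p = 0.0151). Of the 42, 5 (11.9%) were higher and 4 (9.52%) lower at an unadjusted p under 0.05. The list median was 0.02 and the lowest member stood at -0.32. Among the core proteins that carry such chains, HSPG2 (perlecan) and SDC1 (syndecan) differed by 0.41 and 0.38 (limma adjusted p = 0.166 and 0.191). Of 51 collagens, laminins and other matrix genes 7 (13.7%) were higher and 1 (1.96%) lower at an unadjusted p under 0.05, led by FBN2 (fibrillin) at 0.51 and LAMB3 (a laminin chain) at 0.41. Of 39 matrix proteases and inhibitors 5 (12.8%) were higher and 1 lower, led by the inhibitor TIMP2 at 0.41. No gene of either list passed.

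Coagulation genes stood on both sides, with 8 of 40 (20%) higher and 5 (12.5%) lower at the unadjusted level and none past the adjusted threshold. PLAU, the urokinase that activates plasminogen, read 7.27 and 7.24 under vehicle and 7.80 and 7.91 under Comp.2 (difference 0.59, limma adjusted p = 0.0513). F5, clotting factor V, read 5.91 and 5.88 and then 6.69 and 6.41 (difference 0.66, limma adjusted p = 0.122), and FGG, the gamma chain of fibrinogen, read 8.13 and 8.17 and then 7.71 and 7.54 (difference -0.52, limma adjusted p = 0.154). The 3 genes were named by a rule that asks for arrays that do not overlap, so their lack of overlap is no support. Of all genes, 22.7% did not overlap in the higher direction and 21% in the lower. C3 was the single gene of 30 in the complement list to pass, and 3 of the 30 were higher and 1 lower at the unadjusted level.

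**Figure D3:**
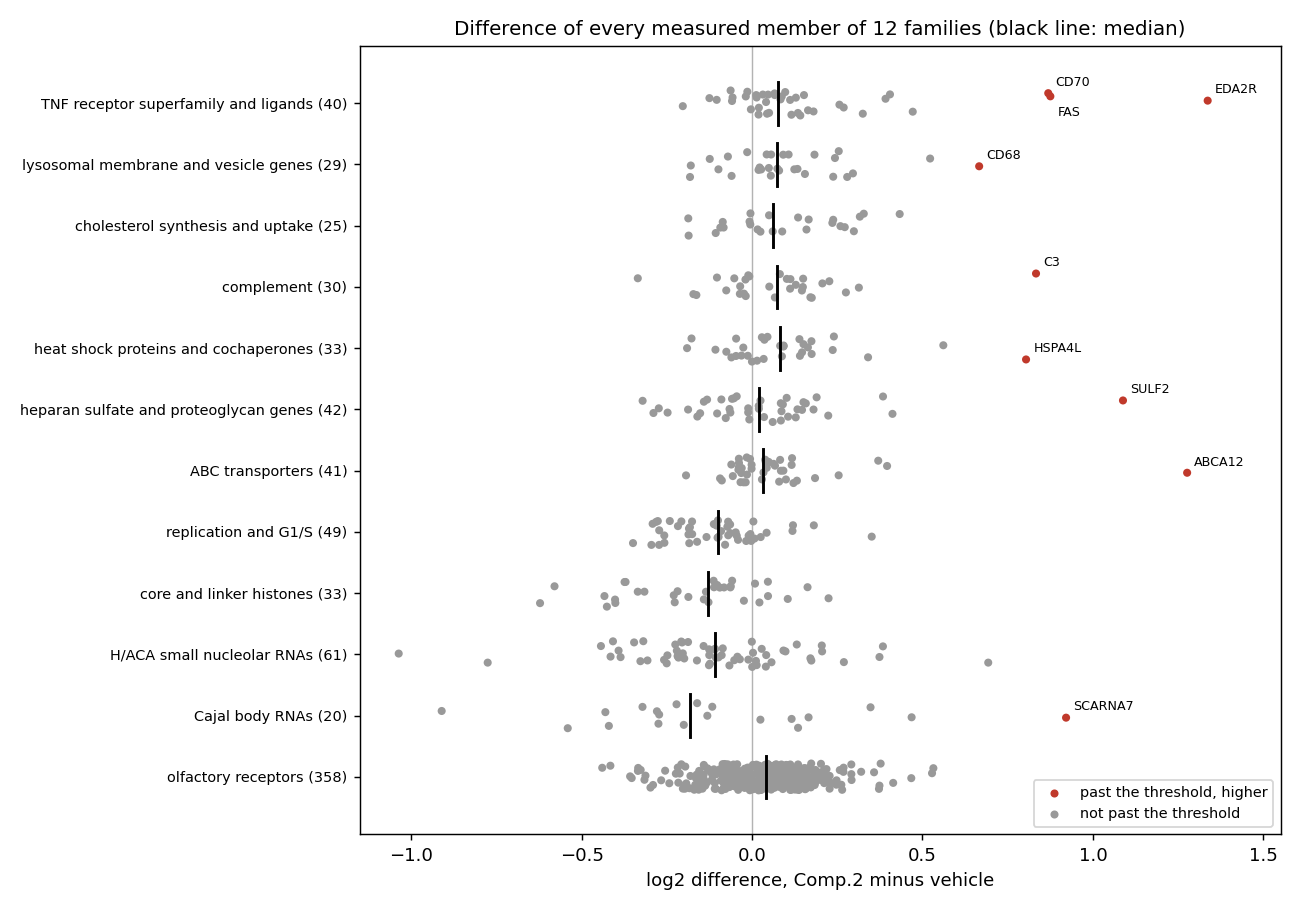
Log2 difference (Comp.2 minus vehicle) of every measured member of 12 families, 1 dot per gene with random vertical spread; black lines are family medians and red dots are genes past the threshold, named. Single members stand far to the right of their families, while histone, replication, H/ACA and Cajal body genes have medians of -0.13, -0.10, -0.11 and -0.18 with no member past the threshold on the lower side.

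No interferon, Notch, MAPK, semaphorin or KLF gene on the lists passed. Of 49 interferon-stimulated genes 10 (20.4%) were higher and 1 lower at an unadjusted p under 0.05, led by the RNA sensor RIGI, with 6.61 and 6.52 under vehicle and 7.07 and 7.18 under Comp.2 (difference 0.56, limma adjusted p = 0.129), and the median was 0.09. Of 31 Notch pathway genes 6 (19.4%) were higher and 0 lower, the largest being DTX2 at 0.34 and the receptor NOTCH1 at 0.30. Of 39 genes of MAPK feedback and the PEA3 factors 8 (20.5%) were higher and 4 (10.3%) lower. There the AP-1 factor FOSL1 differed by 0.58 (limma adjusted p = 0.135), IER5 by 0.50 (limma adjusted p = 0.0897) and ETV4 by -0.53 (limma adjusted p = 0.172). PLXNB2, a semaphorin receptor, read 8.50 and 8.48 and then 8.96 and 9.08 (difference 0.53, limma adjusted p = 0.0761), and its family of 28 semaphorins and plexins had 4 higher and 0 lower. Of 29 KLF and SP factors 1 was higher and 7 (24.1%) lower, led by KLF2 at -0.45 (limma adjusted p = 0.189). HSPA4L was the single gene of 33 heat shock proteins and cochaperones to pass, and the cochaperone DNAJB4 differed by 0.56 (limma adjusted p = 0.178).

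No measured histone or acetyltransferase gene passed. EP300 read 8.91 and 8.96 under vehicle and 8.86 and 8.88 under Comp.2 (difference -0.06, -0.27 to 0.14, limma adjusted p = 0.831). CREBBP read 9.56 and 9.67 and then 9.60 and 9.65, with overlapping arrays (difference 0.01, -0.19 to 0.20, limma adjusted p = 0.985). Of 35 histone acetyltransferase genes, complexes included, 0 were higher and 4 (11.4%) lower at an unadjusted p under 0.05, with a median of -0.02. Of 78 core and linker histone genes listed, 33 were measured, so the counts leave out much of the family. Of these 33, whose copies are alike and may share probes, 0 were higher and 13 (39.4%) lower, with a median of -0.13. H1-5, a linker histone, read 6.72 and 6.98 and then 6.32 and 6.13 (difference -0.62, limma adjusted p = 0.132), and H2BC3, a copy of histone H2B, read 7.11 and 7.06 and then 6.56 and 6.45 (difference -0.58, limma adjusted p = 0.0663). The histone list median kept its sign on leaving out each array, at -0.16 to -0.08 over all settings tried.

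Among cell cycle genes the differences were small. Of 49 genes of replication and the G1/S transition 1 was higher and 14 (28.6%) lower at an unadjusted p under 0.05, with a median of -0.10. Members ran from -0.35 to 0.35: E2F1, the activator of S phase genes, differed by -0.35 (limma adjusted p = 0.444), GINS2, a helicase subunit, by -0.29, and E2F7, a repressor in the same family, by 0.35 (limma adjusted p = 0.206). Of 53 G2/M and mitosis genes 0 were higher and 4 (7.55%) lower, with a median of -0.06, so that this share stood close to the 4.94% of all genes. MYC differed by -0.36 (limma adjusted p = 0.223).

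In the family of SCARNA7, with 20 Cajal body RNAs measured, 4 (20%) were higher and 9 (45%) lower at an unadjusted p under 0.05, with a median of -0.18. SCARNA10 read 8.75 and 8.67 under vehicle and 8.16 and 8.18 under Comp.2 (difference -0.54, limma adjusted p = 0.0586), and SCARNA3 read 7.22 and 7.10 and then 6.03 and 6.48 (difference -0.91, limma adjusted p = 0.121). Among 61 H/ACA small nucleolar RNAs, guides for pseudouridine in ribosomal RNA, 3 (4.92%) were higher and 15 (24.6%) lower, with a median of -0.11. The 157 C/D small nucleolar RNAs, guides for ribose methylation, had 14 (8.92%) higher and 18 (11.5%) lower, with SNORD12 at -0.58 and SNORD69 at -0.49 (limma adjusted p = 0.0804 for both). Under Comp.4 the medians of the Cajal body and H/ACA RNAs were 0.31 and 0.31 against the same vehicle arrays. These short RNAs have near-identical relatives that may share probes.

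The p53 list had 15 of 61 measured members risen and 42 (68.9%) higher at an unadjusted p under 0.05, against 0 lower. Its members outside the cell cycle and death genes included SPATA18, which acts in the removal of damaged mitochondrial proteins, with 5.58 and 5.45 under vehicle and 7.13 and 7.05 under Comp.2 (rise 1.57, 1.39 to 1.76, 2.98-fold, limma adjusted p = 0.00603). GDF15, a secreted stress hormone of the TGF-beta superfamily, read 9.23 and 9.23 and then 10.12 and 10.04 (rise 0.85, limma adjusted p = 0.0216). PURPL, a long noncoding RNA, read 6.40 and 6.55 and then 7.38 and 7.51 (rise 0.97, limma adjusted p = 0.0226). The repair genes POLH, a polymerase that copies past ultraviolet damage, and DDB2, which recognises such damage, rose by 0.91 and 0.85 (limma adjusted p = 0.0234 for both). They were 2 of 27 genes of excision and translesion repair to pass, and XPC differed by 0.45 (limma adjusted p = 0.127). CDKN1A, the cyclin kinase inhibitor p21, read 6.08 and 6.24 and then 7.48 and 7.22. MDM2, the ligase that degrades p53, read 8.75 and 8.79 and then 9.81 and 9.69.

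On the amino acid and unfolded protein stress list 9 of 48 measured members fell, none rose, and 25 (52.1%) were lower and 2 higher at an unadjusted p under 0.05. CHAC1, which breaks down glutathione, read 8.02 and 7.91 under vehicle and 5.98 and 6.23 under Comp.2 and fell by 1.86 (-2.13 to -1.59, 3.64-fold, limma adjusted p = 0.00603). Others of the list act outside metabolism. ULBP1, a surface ligand that natural killer cells recognise through NKG2D, read 6.83 and 6.54 and then 5.48 and 5.44 (difference -1.23, limma adjusted p = 0.0216). It was the single gene of 7 NKG2D ligands measured to pass, and the median of the 7 was -0.12. Among the others, MICA and ULBP3 differed by 0.21 and -0.31. STC2, a secreted glycoprotein, read 7.87 and 7.83 and then 6.56 and 6.69 (difference -1.23, limma adjusted p = 0.00603), while its relative STC1 differed by 0.46 (limma adjusted p = 0.12). SLC7A1, a carrier of arginine and lysine, was the single gene of 327 solute carriers to pass, with 8.94 and 8.99 under vehicle and 8.30 and 8.38 under Comp.2 (difference -0.63, limma adjusted p = 0.046). Of 35 tRNA synthetases 12 (34.3%) were lower and 0 higher at the unadjusted level and CARS1, which charges cysteine tRNA, fell by 0.93 (-1.10 to -0.75, limma adjusted p = 0.02).

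The start regions of the genes that passed were read for 8 short motifs, on both strands, in the first RefSeq window listed for each gene (250 bases before to 50 after the start, GRCh38.p14). A window was found for 22 of the 30 genes that rose and 12 of the 14 that fell. The shares of all windows below are over the 27305 genes with a window, which include genes not tested here. TGATGNAA, the composite element that ATF4 and C/EBP factors bind, was in 4 of the 12 windows of genes that fell. It was in 2 of the 22 of genes that rose (HSPA4L and UIMC1) and in 3.67% of all windows. The p53 decamer motif was in 4 of the 22 windows of genes that rose, in 0 of the 12 of genes that fell and in 6.54% of all windows. The other 6 motifs were the CCAAT box CCAAT (7 of 22, 8 of 12 and 35.7% of all), the TATA box TATAAA (1, 3 and 12%), the CHR element TTTGAA (2, 2 and 15.4%), the cyclic AMP element TGACGTCA (1, 0 and 1.98%), the antioxidant element core TGACNNNGC (6, 3 and 13.6%) and the E2F site TTTCGCGC (0, 0 and 0.546%). A match is a run of letters, not a shown binding site, and a window without one says nothing of sites elsewhere.

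The stretches below hold the ATF4 and C/EBP element in the 4 genes that fell, given because they show the element at different distances from the start, with the match in capitals and 20 bases on each side, written 5′ to 3′ as the gene is transcribed. From RefSeq, GRCh38.p14, they are ASNS at chr7:97872449-97872496 (minus strand), CARS1 at chr11:3057398-3057445 (minus), CHAC1 at chr15:40953242-40953289 (plus) and SLC7A1 at chr13:29595654-29595701 (minus).
ASNS: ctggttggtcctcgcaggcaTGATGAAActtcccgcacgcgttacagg
CARS1: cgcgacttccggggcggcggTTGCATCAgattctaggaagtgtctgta
CHAC1: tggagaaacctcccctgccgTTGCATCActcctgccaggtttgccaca
SLC7A1: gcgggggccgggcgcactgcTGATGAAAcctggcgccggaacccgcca
ASNS, which makes asparagine, read 8.44 and 8.38 under vehicle and 7.50 and 7.31 under Comp.2. In CARS1 and CHAC1 the element lies on the strand opposite to the printed letters, and its N position differs from that in ASNS and SLC7A1.

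The p53 decamer was found in the windows of 4 genes that rose, and PURPL holds a pair of them side by side, which is the full form of the site. They lie at chr2:215138679-215138728 (ABCA12, minus strand), chr7:105581588-105581637 (EFCAB10, minus), chr5:27472145-27472204 (PURPL, plus) and chr15:63157507-63157556 (RPS27L, minus), in GRCh38.p14 from RefSeq, with the matched letters in capitals.
ABCA12: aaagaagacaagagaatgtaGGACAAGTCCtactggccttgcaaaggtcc
EFCAB10: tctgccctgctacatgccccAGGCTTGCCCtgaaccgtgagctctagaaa
PURPL: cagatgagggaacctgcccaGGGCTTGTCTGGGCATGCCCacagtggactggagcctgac
RPS27L: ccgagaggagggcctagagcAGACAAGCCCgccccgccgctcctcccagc
EFCAB10 is the single gene of these 4 that was on no stress list. RPS27L, a ribosomal protein relative, read 5.16 and 5.16 under vehicle and 5.92 and 5.89 under Comp.2 (rise 0.75, limma adjusted p = 0.0372) and was the single gene of 55 cytosolic ribosomal proteins to pass.

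Several protein-coding genes missed the threshold and were picked for their size and for arrays that did not overlap. Their differences were 0.55 to 0.85 in size. ANKRD1, a nuclear protein induced by YAP, read 5.05 and 5.25 under vehicle and 5.93 and 6.08 under Comp.2 (difference 0.85, limma adjusted p = 0.0702). NEFL, the light chain of neurofilaments, read 6.61 and 6.65 and then 7.36 and 7.60 (difference 0.84, limma adjusted p = 0.0552). LACC1, an enzyme of purine metabolism in macrophages, read 5.90 and 5.70 and then 6.53 and 6.49 (difference 0.71, limma adjusted p = 0.0572). CCL2, a chemokine for monocytes, read 5.99 and 6.13 and then 6.51 and 7.01 (difference 0.70, limma adjusted p = 0.243), and its Comp.2 arrays stood further apart than those of the other 3. On the lower side PCK2, the mitochondrial enzyme that makes phosphoenolpyruvate, read 6.97 and 7.17 and then 6.35 and 6.32 (difference -0.73, limma adjusted p = 0.0544). BCAT1, which transfers amino groups from branched amino acids, differed by -0.60 (limma adjusted p = 0.0714), IRS2, an adaptor of the insulin receptor, by -0.56 (limma adjusted p = 0.135) and BMP6, a bone morphogenetic protein, by -0.55 (limma adjusted p = 0.122).

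Comp.4 was given at the same dose and time and is compared with the same 2 vehicle arrays, so its values are set beside those of Comp.2 and no overlap is drawn from them. Between the compounds themselves, 43 genes (0.192%) were higher and 40 (0.179%) lower under Comp.4 than under Comp.2 in limma over all genes, and 19 of the 44 genes above were among them. The 44 were chosen with the Comp.2 arrays that also enter this contrast, so the 19 is a description. Outside the stress lists 6 of 19 differed: MIR3685, CYFIP2, C3, HSPA4L, CLTRN and EFCAB10. EFCAB10 read 5.16 and 5.14 under Comp.4, at the vehicle level, and Comp.4 minus Comp.2 was -0.76 (-0.93 to -0.60, limma adjusted p = 0.0209). CLTRN read 5.34 and 5.36 under Comp.4 (Comp.4 minus Comp.2 -0.79, -0.99 to -0.59, limma adjusted p = 0.028), and C3 read 8.04 and 8.07 (-0.65, -0.82 to -0.48, limma adjusted p = 0.0299). For the other 13 the difference between compounds did not pass, which does not show that they act alike. IGFL2-AS1 read 6.17 and 6.21 under Comp.4, with an interval of -0.63 to 0.19 for Comp.4 minus Comp.2. GUSBP3 read 5.72 and 5.83 (-0.40 to -0.01) and LINC00641 read 6.18 and 6.06 (-0.35 to 0.02). These 3, LINC00641 by its brighter probe set, also passed for Comp.4 against vehicle (limma adjusted p = 0.0425, 0.0083 and 0.0265). That contrast called 0.0536% of all genes higher and 0.0938% lower. It uses the same 2 vehicle arrays as the Comp.2 contrast, so passing in both is no independent support.

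**Figure D4:**
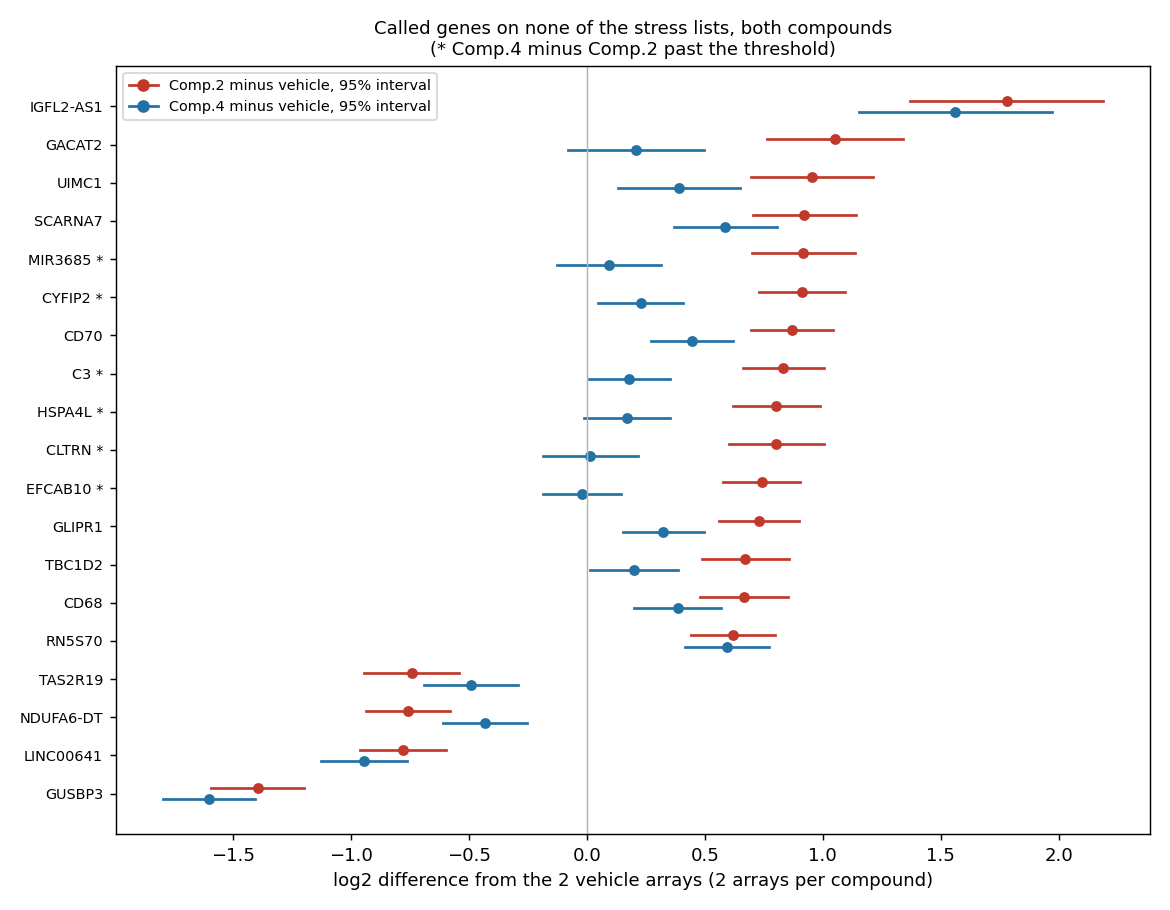
Log2 difference from the 2 vehicle arrays for the 19 genes past the threshold under Comp.2 that are on none of the stress lists, with 95% intervals from limma (red Comp.2, blue Comp.4, 2 arrays each). Asterisks mark the 6 genes whose Comp.4 minus Comp.2 difference passed; the intervals of both compounds overlap for IGFL2-AS1, RN5S70, LINC00641 and GUSBP3, among others.

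Array quality gave no array that stood apart. Across all genes the SD of the log2 difference was 0.158 between the 2 vehicle arrays, 0.183 between the 2 Comp.2 arrays and 0.196 to 0.205 between a vehicle and a Comp.2 array. The spread between groups was thus little larger than between arrays of a group, and with so few arrays the precision is low.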

How the data were processed

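The table deposited by the authors holds log2 levels of 53617 probe sets on each array. RMA (background correction, quantile normalization and probe summary) produced them, per the submitters' processing notes, where Transcriptome Analysis Console 2.0 and Affymetrix Expression Console 1.3.1 are listed too. Quantile normalization forces equal distributions on all arrays, so a shift shared by most genes cannot be seen. The platform annotation gave 1 symbol to 23871 probe sets, several to 1842 and none to 27904; 22575 matched RefSeq and 90 symbols were updated. The brightest probe set stood for each of the 632 genes with several, leaving 22395 genes. No filter was applied.

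limma 3.58.1 (lmFit and eBayes, R 4.3.3) fitted a mean per group over all 6 arrays, with Benjamini-Hochberg adjustment over all genes at 0.05; values are mean differences with 95% intervals, n = 2 arrays per group. The fit was tested on simulated data. Genes are "brighter" when their mean over all 6 arrays exceeds the median gene's 5.35. A gene higher under a compound can therefore be brighter through the compound arrays alone. Examples are ANKRD1, BCL2A1, EFCAB10 and CLTRN, with vehicle means of 5.15, 5.11, 5.17 and 5.34, so being brighter is no support for their differences. Named genes are all that passed, up to 3 of the largest members per list (unadjusted p under 0.05, arrays not overlapping, brighter), the 12 largest rises and falls that missed the threshold, EP300 and CREBBP. The comparison, the 115 gene lists and the tests were chosen with earlier results of these data known. Alternatives tried were a variance trend, a robust prior, brighter or protein-coding genes, 4 arrays, other probe set rules, median centring, the replicate number as a block, leaving out each array, and an adjusted p of 0.10.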

Additional observations from a re-analysis of the deposited data

How the results depend on the processing

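The 30 higher and 14 lower genes became 226 and 162 with a variance trend, 154 and 79 among brighter genes, and 55 and 30 at an adjusted p of 0.10, each time including the 44 except 2 higher and 2 lower genes outside the brighter set. They became 9 and 5 on the 4 arrays alone, where fewer samples set the spread, 9 and 6 with the replicate number as a block, 0 and 0 when all 53617 probe sets were tested (1068 and 830 named genes at an unadjusted p under 0.05), and 0 to 9 and 0 to 5 on leaving out an array. The replicate numbers did not pair the samples: the correlation across genes of replicate deviations was 0.029 for vehicle with Comp.2. The 19 genes that differed between compounds became 36 with the trend and 0 with the block. The robust prior, mean probe set and median centred settings stayed within 1.5 times for both counts. Testing protein-coding genes alone gave 41 higher and 21 lower, against 24 and 11 protein-coding genes in the main fit. All 44 genes kept their direction throughout; CREBBP, which did not pass, reversed to -0.0104 with median centring and ran from -0.0492 to 0.0627 on leaving out an array. Of the 44, CHAC1, GUSBP3, SPATA18, STC2, EDA2R, SULF2, CARS1 and CD70 passed in 8 of 13 settings, the highest number. The cause of these shifts was not tested. The number of arrays, 2 per group, limits the precision.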

Other observations

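Olfactory receptor, immune receptor segment, microRNA and LINC-named genes were mostly dimmer than the median gene, and give the size of differences in dim probe sets. Of 358 olfactory receptor genes, 15 were brighter than the median gene; 16 (4.47%) were higher and 8 (2.23%) lower at an unadjusted limma p under 0.05, none passed and the median was 0.04. Of 253 immunoglobulin and T cell receptor segments, 12 (4.74%) were higher and 10 (3.95%) lower and none passed. Of 1046 microRNA genes 60 (5.74%) were higher and 66 (6.31%) lower, and MIR3685 passed. Of 642 LINC-named RNAs 25 (3.89%) were higher and 17 (2.65%) lower, both below the shares of all genes, and LINC00641 passed. Of the 480 ZNF-named zinc finger genes, 258 were brighter than the median gene, and 29 (6.04%) were higher and 35 (7.29%) lower. Of the 72 nuclear genes of oxidative phosphorylation, 58 were brighter, and 1 (1.39%) was higher and 3 (4.17%) lower. No gene of these last 2 lists passed.

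Among 126 sodium, potassium and calcium channel genes none passed, and KCNN4, a calcium-gated potassium channel, differed by 0.51 (limma adjusted p = 0.13). KRT19, a keratin of simple epithelia and a marker of the line, differed by 0.50 (limma adjusted p = 0.19). CDH17 and DSC3, cadherins of cell junctions, each differed by 0.50 (limma adjusted p = 0.13 and 0.14).

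Probe sets with no symbol or several symbols, 29746 in all, were fitted together with the named ones. In that limma fit 0 passed, the smallest adjusted p being 0.055, and 1194 were higher and 1545 lower at an unadjusted p under 0.05. Differences of at least 2-fold were seen in 133 of them, against 16 of the 23871 named probe sets, and their median level was 4.04 against 5.33.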
